A study of Homo sapiens with 6 samples.

Results

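The 10 genes described here are markers of glioma stem cells and of the glial lineages: POU3F2, SALL2, OLIG2, OLIG1, PROM1, FABP7, S100B, CHI3L1, NFIA and NFIB. They were chosen by name, through their NCBI gene identifiers, and are 10 of the 28395 genes listed in the count table of the series. All 10 were found. RNA-sequencing compared U251MG cells, an established human glioblastoma line, with genotype WT (3 libraries) and U251MG cells labelled N2CR (3 libraries), in which NUAK2, a kinase of the AMPK-related family, had been targeted by CRISPR-Cas9. The latter are called NUAK2-CR here. According to the study's methods, the guide RNA was delivered by a GFP and an mCherry lentiviral vector, cells positive for both colours were sorted into wells, and clones were screened by PCR. Which clone the NUAK2-CR libraries came from is not in the labels, so a difference of genotype and a difference between clones cannot be told apart. The labels also do not say that the libraries of a group came from separate cultures, and p-values then measure only the spread between these libraries, which may be technical.

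Several of these genes define cell states in glioblastoma. POU3F2, SALL2 and OLIG2 are transcription factors that, together with SOX2, form a known set of 4 factors able to give differentiated glioblastoma cells stem-like properties. OLIG1 and OLIG2 direct the oligodendrocyte lineage, PROM1 encodes the surface antigen CD133 used to sort stem-like glioma cells, and FABP7 is a fatty acid binding protein of radial glia. S100B is a calcium-binding protein of astrocytes, CHI3L1 is a secreted chitinase-like glycoprotein linked to the mesenchymal state of glioblastoma, and NFIA and NFIB are nuclear factors of the switch to gliogenesis. Nuclear factor I proteins are known to bind the promoters of FABP7 and GFAP in glioma cells.

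Counts on genes summed to between 29648445 and 55574081 per library, and 14873 genes had enough counts to be tested. Normalized counts were obtained by dividing each count by its library's effective size and multiplying by the mean of those sizes. The targeted gene, NUAK2, gave 1926, 1457 and 1580 in the WT libraries against 799, 961 and 849 in the NUAK2-CR ones, and fell by 0.93 on the log2 scale with a standard error of 0.11 (edgeR's quasi-likelihood test, adjusted p = 1.8e-05). Calls were frequent across the genome in this comparison. An adjusted p-value under 0.05 was reached by 54.5% of the tested genes, 26.3% being higher and 28.2% lower in NUAK2-CR. Differentially expressed genes (DEGs), which also had an absolute log2 fold change over 2, made up 4.72%, with 1.89% higher and 2.83% lower. The libraries of the groups did not overlap for 61.4% of the tested genes.

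Of the 10 markers, 7 had enough counts to be tested, and 5 of these 7 passed the adjusted p-value threshold, against the 54.5% of all tested genes. SALL2 and CHI3L1 rose in NUAK2-CR, while POU3F2, FABP7 and S100B fell. Of these, 3 were DEGs, CHI3L1 being higher and POU3F2 and S100B lower, against 4.72% of all tested genes. The markers were chosen with earlier results of these data known, so their shares against those of all tested genes measure no enrichment. NFIA and NFIB did not pass the test. PROM1, OLIG1 and OLIG2 had too few counts to be tested. The 7 tested markers had a median log2 fold change of -0.38, beside -0.01 over every gene tested.

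**Figure D1:**
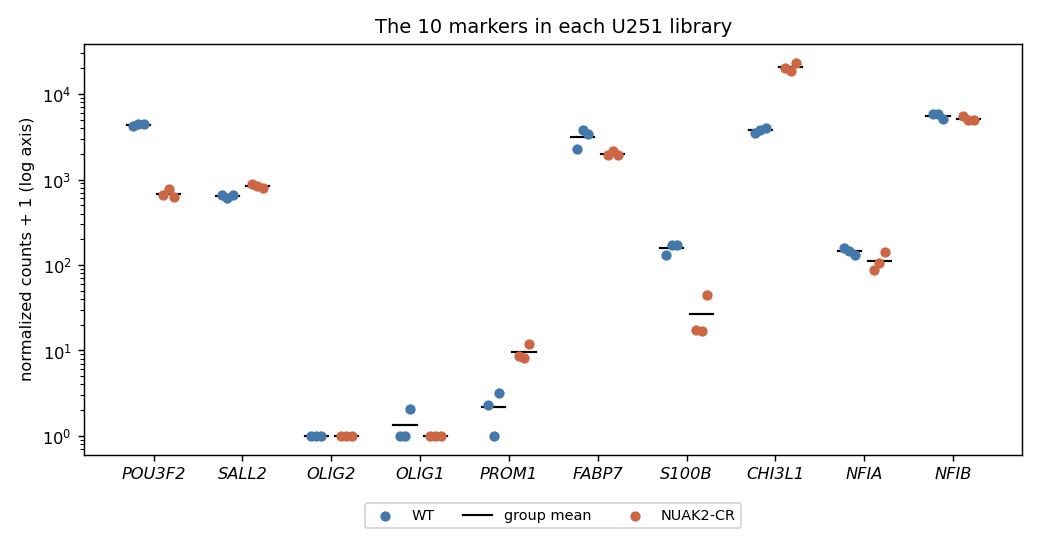
Normalized counts plus 1 (log axis) of each of the 10 markers in each library, with WT in blue, NUAK2-CR in orange and black bars at the group means (n = 3). POU3F2 and S100B sit lower and CHI3L1 higher in all 3 NUAK2-CR libraries, the points of NFIA and NFIB overlap between the groups, and OLIG2 stays at 0 counts throughout.

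The sequences upstream of the start sites of POU3F2, CHI3L1 and FABP7 are shown because the first is a DEG that fell and the second a DEG that rose, and because FABP7 is a known target of nuclear factor I proteins. Each is the 250 bases before the start site, 5′ to 3′ on the gene's own strand, from RefSeq on GRCh38.p14. The POU3F2 stretch is chr6:98834324-98834573 on the plus strand, that of CHI3L1 is chr1:203186705-203186954 on the minus strand, and that of FABP7 is chr6:122779466-122779715 on the plus strand. Capitals mark matches to any of 8 motifs searched on both strands.
POU3F2: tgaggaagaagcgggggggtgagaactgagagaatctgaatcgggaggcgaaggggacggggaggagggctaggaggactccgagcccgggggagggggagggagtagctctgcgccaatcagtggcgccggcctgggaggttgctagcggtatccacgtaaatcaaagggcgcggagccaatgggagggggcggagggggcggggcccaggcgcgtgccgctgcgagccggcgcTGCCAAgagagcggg
CHI3L1: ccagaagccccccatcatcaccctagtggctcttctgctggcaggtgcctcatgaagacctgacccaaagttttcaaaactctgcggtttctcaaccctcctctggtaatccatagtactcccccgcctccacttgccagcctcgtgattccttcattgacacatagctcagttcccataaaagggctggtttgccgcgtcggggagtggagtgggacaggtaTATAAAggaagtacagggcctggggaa
FABP7: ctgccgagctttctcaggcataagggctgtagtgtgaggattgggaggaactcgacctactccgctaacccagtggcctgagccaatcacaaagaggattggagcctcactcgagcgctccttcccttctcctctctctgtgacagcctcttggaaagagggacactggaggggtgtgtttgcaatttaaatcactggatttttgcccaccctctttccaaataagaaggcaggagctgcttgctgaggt

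The capitals in the POU3F2 sequence are a short nuclear factor I site (TTGGCA on the opposite strand) at bases -15 to -10, and those of CHI3L1 are a TATA box (TATAAA) at bases -27 to -22. The FABP7 stretch held none of the motifs as searched. The short site had to match every letter of TTGGCA. Its first letters TTGGC, on the opposite strand (gccaa), do occur unmarked in the FABP7 and POU3F2 stretches. An absence of nuclear factor I sites can therefore not be read from this search. Across all 35116 promoters of the table, each spanning 250 bases before and 50 after a start site, the short site occurred in 12.5% and the TATA box in 11.5%. The other motifs were the full nuclear factor I site (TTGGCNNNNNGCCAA, in 0.0285% of promoters), the POU octamer (ATGCAAAT, 1.77%), a STAT site (TTCNNNGAA, 7.66%), an AP-1 site (TGANTCA, 7.71%), a C/EBP site (TTGCNNAA, 10.5%) and a SOX site (CATTGT, 10.8%). A short and a full nuclear factor I site can overlap. Among the other markers with a promoter in the table, 1 NFIA promoter held a POU octamer at -42 to -35 and 2 C/EBP sites, the SALL2 promoter a SOX site at -89 to -84 and 1 PROM1 promoter an AP-1 site at -189 to -183. NFIB had short nuclear factor I sites in 3 of its promoters and a C/EBP site in 1 of these. In all, 7 of the 10 markers were matched, and S100B, OLIG1 and OLIG2 were not. These matches describe the letters of the sequence and were not tested for binding.

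POU3F2 (NCBI gene 5454, also known as BRN2) is a gene of a single exon on chromosome 6 of GRCh38, from 98834574 to 98839458, and encodes a POU domain transcription factor of neural progenitors. It and S100B had the lowest log2 fold changes of the 7 tested markers, and which of them was lower varied with the processing. In the order of replicates 1, 2 and 3, which is kept throughout, WT libraries had 4185, 4421 and 4421 normalized counts, against 660.3, 766 and 616 for NUAK2-CR. The libraries of each group lay close together, and the highest NUAK2-CR library was far under the lowest WT library. The mean went from 4342 ± 136 (SD, n = 3) to 681 ± 77.0 (SD, n = 3), or 15.7% of WT. By edgeR's quasi-likelihood test this was a log2 fold change of -2.67 with a standard error of 0.09 and a 95% interval of -2.86 to -2.48 (adjusted p = 3.45e-10). In these bulk libraries, fewer cells with a transcript and less of the transcript per cell cannot be told apart. The 100 tested genes nearest to POU3F2 on chromosome 6 had a median log2 fold change of 0.10.

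The other POU3 genes encode close relatives of POU3F2, and none of them was a DEG. POU3F4 had normalized counts of 4607, 4743 and 4830 in WT and 3776, 3606 and 4041 in NUAK2-CR, and fell by 0.31 on the log2 scale with a standard error of 0.07 (edgeR's quasi-likelihood test, adjusted p = 0.00187). POU3F3 had 286, 219 and 245 in WT and 305, 343 and 350.2 in NUAK2-CR, and rose (log2 fold change 0.41, standard error 0.14, adjusted p = 0.028 by the same edgeR test). POU3F1 had too few counts to be tested. Levels of different genes can be compared per length, here as RPKM, that is CPM (counts scaled to a fixed library size) divided by the length of the canonical transcript in kilobases. On that scale the 4 genes summed to 58.1 ± 1.33 in WT and 32.2 ± 1.25 in NUAK2-CR (SD, n = 3). POU3F2 made up 40.8% ± 0.482 of that sum in WT and 11.6% ± 1.69 in NUAK2-CR, whereas POU3F4 went from 56.5% ± 0.136 to 82.1% ± 1.84 (SD, n = 3). POU3F4 was thus the most abundant POU3 transcript in each group.

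SALL2 (gene 6297, chromosome 14, 21521080 to 21537121), a zinc finger factor of the spalt family, rose modestly. The normalized counts were 654, 612 and 656 in WT and 874, 829 and 795 in NUAK2-CR, with no overlap between the groups. The log2 fold change was 0.38 with a standard error of 0.09 (edgeR's quasi-likelihood test, adjusted p = 0.00274), a mean of 641 ± 25.1 against 832 ± 39.5 (SD, n = 3). SALL2 shares exonic sequence with a long non-coding RNA on the opposite strand, and the counting step was run with default parameters, which do not use strand, so reads of the pair cannot be told apart. Its relative SALL1 had 2464, 2562 and 2233 normalized counts in WT against 2234, 2047 and 2112 in NUAK2-CR and did not pass (log2 fold change -0.18, adjusted p = 0.0533 from the edgeR test). SALL2 made up 21.8% ± 1.77 of the per-length sum of the SALL family in WT and 29.0% ± 0.736 in NUAK2-CR (SD, n = 3).

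OLIG2 (gene 10215) and OLIG1 (gene 116448), neighbouring basic helix-loop-helix genes on chromosome 21, were essentially without reads. OLIG2 had 0 counts in all 6 libraries. OLIG1 had 1 count, in WT replicate 3, and 0 elsewhere. A count of 0 allows up to 3 counts in a library, which is 0.0540 to 0.101 CPM at these depths, counting error only. No difference in either gene was detectable at this depth. SOX2, the remaining factor of the stem cell set, had 6407, 7167 and 6886 normalized counts in WT against 3039, 3162 and 3265 in NUAK2-CR. It fell by 1.11 on the log2 scale with a standard error of 0.07 (edgeR's quasi-likelihood test, adjusted p = 6.55e-08). Within the set of 4 factors, POU3F2 and SOX2 therefore fell, SALL2 rose and OLIG2 had no counts.

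PROM1 (gene 8842, chromosome 4, 15968228 to 16084023) was also close to 0. The WT libraries had 2, 0 and 2 counts, and the NUAK2-CR libraries 6, 6 and 10. All NUAK2-CR libraries were above all WT libraries, but the sums were only 4 and 22 counts. The ratio of these sums per effective library size was 7.56, with an exact 95% interval of 2.57 to 30.2 that covers counting error only. In a fit without the filter on low counts, edgeR's quasi-likelihood test gave 2.77 on the log2 scale with a standard error of 1.19 (adjusted p = 0.0592), which did not pass. PROM1 shares exonic sequence with FGFBP2 on the same strand, which had 6 counts in all libraries together.

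FABP7 (gene 2173, chromosome 6, 122749201 to 122784074) fell, without reaching the DEG threshold. Its normalized counts were 2291, 3751 and 3392 in WT and 1921, 2141 and 1938 in NUAK2-CR. WT replicate 1 was lower than the other WT libraries and stood only slightly above the highest NUAK2-CR library. The mean was 3145 ± 761 in WT and 1999.8 ± 122 in NUAK2-CR (SD, n = 3), and the log2 fold change was -0.65 with a standard error of 0.14 (edgeR's quasi-likelihood test, adjusted p = 0.00192). Leaving out each library in turn gave values from -0.83 to -0.51, and the call held each time. Per length, FABP7 was the highest of the 10 markers in WT, at 107 ± 25.8 RPKM, and the second highest in NUAK2-CR, at 67.9 ± 4.15 (SD, n = 3).

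S100B (gene 6285, chromosome 21, 46598604 to 46605082) also fell, from a lower level than POU3F2 and with a wider spread. It had 132, 169 and 172 normalized counts in WT against 16.5, 15.7 and 43.9 in NUAK2-CR. NUAK2-CR replicate 3 was higher than the other NUAK2-CR libraries, and all were under the lowest WT library. By edgeR's quasi-likelihood test this was a log2 fold change of -2.60 with a standard error of 0.34 and a 95% interval of -3.35 to -1.85 (adjusted p = 4.07e-05). Without NUAK2-CR replicate 3 it was -3.28, and the call held with each library left out in turn.

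The S100A genes encode related calcium-binding proteins and lie on chromosome 1, apart from S100B on chromosome 21. Of 9 tested, 7 fell and 2 did not pass, beside the 28.2% of all tested genes that fell. The 9 lie between 151982915 and 153634361. Elsewhere on chromosome 1, the 100 tested genes nearest to CHI3L1 and to NFIA had median log2 fold changes of -0.40 and -0.42. No such median was computed around the S100A genes, so the part of their position was not tested. S100A2 was the only DEG among the 26 paralogs of the markers, with 10331, 11387 and 12137 normalized counts in WT against 1811, 2014 and 1828 in NUAK2-CR (log2 fold change -2.58, edgeR's quasi-likelihood test, adjusted p = 2.8e-10). S100A10 fell by 0.97, S100A16 by 0.79, S100A3 by 0.77, S100A11 by 0.49, S100A13 by 0.23 and S100A6 by 0.20 on the log2 scale, while S100A1 (log2 fold change -0.55, adjusted p = 0.261, edgeR) and S100A4 (0.11, adjusted p = 0.59) did not pass. S100A13, whose groups overlapped, and S100A6 passed only narrowly (adjusted p = 0.0496 and 0.0465, edgeR). Of the 19 paralogs tested, 3 rose, 8 fell and 8 did not pass, so that 57.9% were called, near the 54.5% of all tested genes. Their median log2 fold change was -0.20. The number of paralogs that fell was 7 with DESeq2, 6 with RLE normalization and 9 with at least 10 counts in every library.

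CHI3L1 (gene 1116, chromosome 1, 203178931 to 203186704, also known as YKL-40) was the only tested marker besides SALL2 to rise. Its normalized counts were 3539, 3755 and 3949 in WT and 20065, 18745 and 23274 in NUAK2-CR. Each NUAK2-CR library was several times any WT library. The mean went from 3748 ± 205 to 20695 ± 2329 (SD, n = 3), a ratio of 5.52, and edgeR's quasi-likelihood test gave a log2 fold change of 2.47 with a standard error of 0.09 and a 95% interval of 2.27 to 2.66 (adjusted p = 6.77e-10). CHI3L1 lies on the same chromosome as NUAK2, which spans 205302063 to 205321745. The 100 tested genes nearest to CHI3L1 lay between 196652043 and 211579161, a stretch that holds NUAK2. Of these 100 genes 56 fell and 11 rose, beside 28.2% lower and 26.3% higher among all tested genes. The median log2 fold change of the 100 was -0.40. CHI3L1 thus rose within a region that was on the whole lower in NUAK2-CR, and relative to that median its value was 2.87. The part of its position near the targeted gene was not tested. Of its paralogs, CHI3L2 and CHID1 were tested and did not pass, and CHIT1 had too few counts. CHI3L2, with 18.6, 34.7 and 27.9 normalized counts in WT against 12.7, 43.4 and 30.7 in NUAK2-CR, had a log2 fold change of 0.12 (adjusted p = 0.842 from the edgeR test), and CHID1 had one of 0.05 (adjusted p = 0.662).

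**Figure D2:**
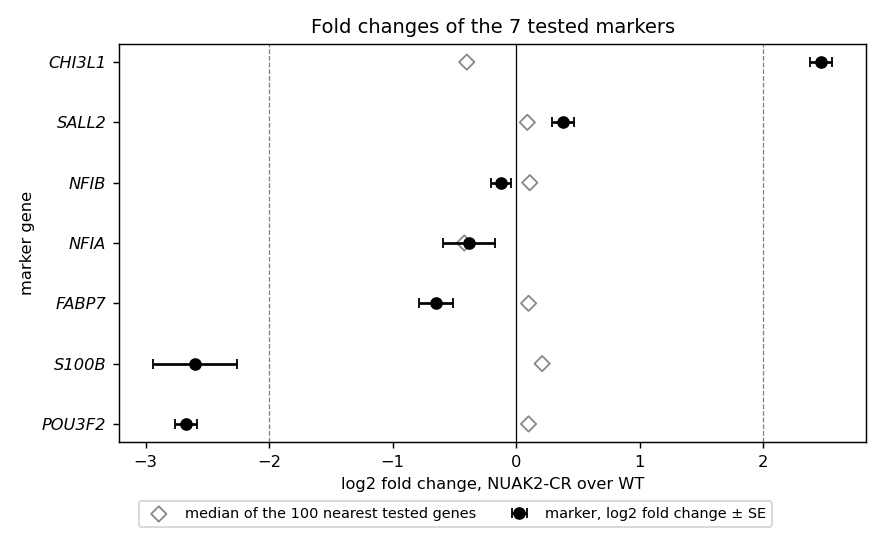
Log2 fold change of NUAK2-CR over WT with its standard error for the 7 tested markers (black), beside the median of the 100 nearest tested genes on the same chromosome (grey diamonds), with dashed lines at the DEG threshold of 2 in each direction. CHI3L1 lies at 2.47 against a regional median of -0.40, and NFIA at -0.38 lies next to its regional median of -0.42.

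NFIA (gene 4774, chromosome 1, 61077227 to 61462788) and NFIB (gene 4781, chromosome 9, 14081843 to 14532077) encode nuclear factor I proteins. Neither passed the test. NFIA had 156, 147 and 129 normalized counts in WT against 86.3, 105 and 139 in NUAK2-CR, where replicate 3 lay inside the WT range. For this gene edgeR's quasi-likelihood test gave -0.38 on the log2 scale, with a standard error of 0.21 and a 95% interval of -0.85 to 0.08 (adjusted p = 0.148). Without NUAK2-CR replicate 3 it was -0.59 and passed (adjusted p = 0.0457, edgeR). The 100 tested genes nearest to NFIA had a median log2 fold change of -0.42, and relative to that median the value of NFIA was 0.04. NFIB had 5808, 5771 and 5079 normalized counts in WT against 5468, 4931 and 4926 in NUAK2-CR, overlapping ranges, and a log2 fold change of -0.12 (standard error 0.08, 95% interval -0.29 to 0.04, adjusted p = 0.201, edgeR).

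The other members of the family, NFIC and NFIX, rose. NFIX had 16524, 13733 and 12908 normalized counts in WT against 23691, 22708 and 22379 in NUAK2-CR (log2 fold change 0.67 with a standard error of 0.09; edgeR's quasi-likelihood test, adjusted p = 3.86e-05). NFIC had 16615, 12899 and 11284 in WT and 18465, 18979 and 17055 in NUAK2-CR (log2 fold change 0.42, standard error 0.12, adjusted p = 0.00856, edgeR). WT replicate 1 was the highest WT library for each of these genes. Per length, the family summed to 127 ± 18.5 RPKM in WT and 178 ± 6.10 in NUAK2-CR (SD, n = 3). NFIX made up 50.4% ± 1.01 of it in WT and 57.0% ± 0.855 in NUAK2-CR, NFIB 13.7% ± 1.28 and 8.92% ± 0.355, and NFIA 0.330% ± 0.0207 and 0.180% ± 0.0504.

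**Figure D3:**
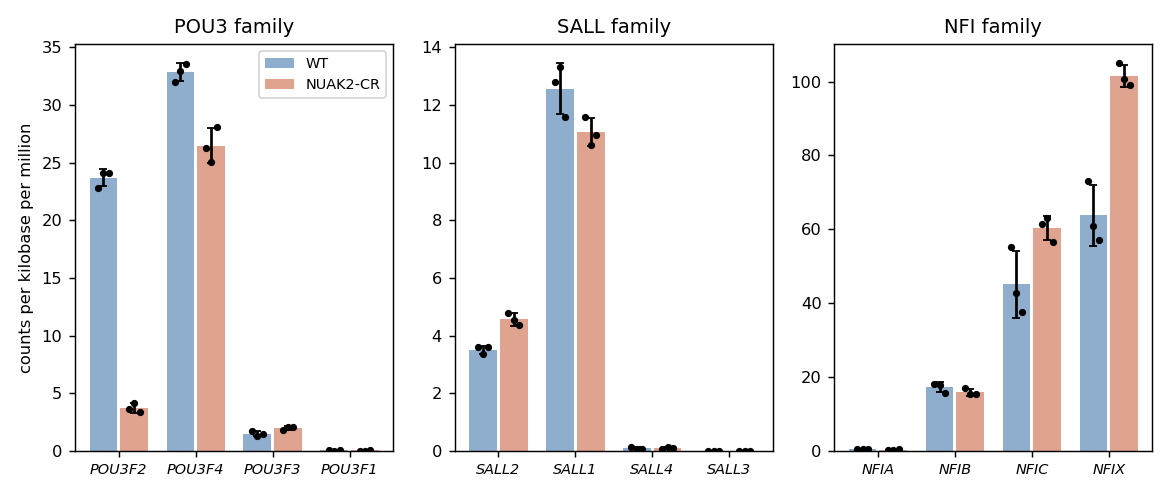
RPKM over the canonical transcript (vertical axis) for the POU3, SALL and NFI families, as bars for the mean, error bars for the SD and points for the 3 libraries of WT (blue) and NUAK2-CR (orange). POU3F2 drops from 23.7 to 3.71 beside a smaller fall of POU3F4, SALL2 stands well under SALL1, and NFIA and NFIB stand under NFIC and NFIX.

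Ordered by RPKM, the WT markers ran from FABP7 (107) through CHI3L1 (57.2), POU3F2 (23.7), NFIB (17.3), S100B (3.79), SALL2 (3.51) and NFIA (0.416) to PROM1 (0.00769), OLIG1 and OLIG2. The neighbours S100B and SALL2, and those from PROM1 down, had overlapping libraries. In NUAK2-CR the order was CHI3L1 (316), FABP7 (67.9), NFIB (15.9), SALL2 (4.57), POU3F2 (3.71), S100B (0.610), NFIA (0.318) and PROM1 (0.0571), with OLIG1 and OLIG2 at 0. Only S100B and NFIA overlapped among the neighbours with counts. CHI3L1 thus moved above FABP7, and POU3F2 moved below NFIB and SALL2. With all annotated exons as the length, an alternative chosen after seeing the data, FABP7 (33.7) and CHI3L1 (29.7) overlapped in WT, SALL2 stood above S100B in WT, and SALL2 and POU3F2, and NFIA and PROM1, overlapped in NUAK2-CR.

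Other genes of the same lineages were read against the shares of all tested genes, of which 54.5% were called, 26.3% higher and 28.2% lower, and 4.72% were DEGs. These lists too were chosen with earlier results of these data known, so their shares measure no enrichment. Of the 20 tested glioma stem cell markers, 9 rose and 7 fell (80.0% called), and their median log2 fold change was 0.35. The DEGs among them were LGR5, a receptor of the WNT pathway (779 ± 89.3 to 110.5 ± 23.5 normalized counts, SD, n = 3, log2 fold change -2.82), and PTPRZ1, a receptor phosphatase of radial glia (574 ± 200.3 to 127 ± 17.5, log2 fold change -2.17). Of the 15 tested radial glia and neural progenitor markers, 6 rose and 4 fell (66.7% called), with a median of 0.21, and SOX3, a relative of SOX2, was the DEG (1002 ± 81.9 to 249 ± 20.6, log2 fold change -2.01). All 25 mesenchymal glioma genes, the state that CHI3L1 is linked to, were tested. Among them 14 rose and 8 fell (88.0% called) with a median of 0.29, and none was a DEG, so none of the 25 had a change of the size seen for CHI3L1.

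The oligodendrocyte and astrocyte lists had lower medians. Of 23 oligodendrocyte lineage markers, 11 were tested, 1 rose and 6 fell (63.6% called), and their median log2 fold change was -0.70. The DEGs were PDGFRA, the receptor of oligodendrocyte progenitors (663 ± 157 to 113 ± 37.8, log2 fold change -2.54), and ZNF488, an oligodendrocyte factor (452 ± 36.8 to 75.6 ± 13.9, log2 fold change -2.58). Like OLIG1 and OLIG2, the lineage factor SOX10 was near 0, with 1 library above 0. Of 19 tested astrocyte markers, 2 rose and 9 fell, with a median of -0.64. The 57.9% called were near the 54.5% of all tested genes, and 5 were DEGs (4.72% of all tested genes), among them KCNJ10 at low counts. KCNJ10 had 60, 55 and 57 counts in WT against 0, 4 and 0 in NUAK2-CR, and met the filter through the WT libraries alone. GFAP, the astrocyte intermediate filament, went from 88323 ± 5494 to 14984 ± 1129 (log2 fold change -2.56), ID3 from 11027 ± 977 to 1712 ± 89.1 (-2.69) and the glutamate transporter gene SLC1A2 from 237 ± 17.2 to 52.4 ± 30.8 (-2.19). The membrane protein gene MLC1 rose, from 282 ± 43.5 to 1707 ± 64.1 (2.61).

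Markers of other cell types were examined as well. Of 15 tested neuronal markers, 8 rose and 1 fell, with a median of 0.43. The 60.0% called were near the 54.5% of all tested genes, with more of the called genes higher. In a fit without the filter on low counts, 18 were tested, 8 rose and 3 fell, with a median of 0.23. DCX, a marker of young neurons that the filtered fit of all 6 libraries did not cover, had 12, 16 and 14 counts in WT against 0, 2 and 1 in NUAK2-CR. It fell in the fit without the filter (edgeR's quasi-likelihood test, adjusted p = 0.00614). In the filtered fit the DEGs were STMN2 (2.05 ± 2.49 to 82.7 ± 15.3 normalized counts, log2 fold change 5.27), SNAP25 (64.6 ± 10.2 to 754 ± 74.9, 3.56) and ELAVL3 (34.2 ± 2.02 to 256 ± 23.6, 2.90). STMN2 had 2, 5 and 0 counts in WT and met the filter through the NUAK2-CR libraries alone. Its fold change therefore rests on a WT level near 0. The neuronal nuclear marker RBFOX3 had means of only 12.6 and 7.98. Of 12 microglia and macrophage markers, 6 had no count in any library, AIF1 among them, and PTPRC had a mean under 1 in each group. The 2 genes tested fell. They were CSF1R (222 ± 17.9 to 40.2 ± 2.39, log2 fold change -2.46) and CD68, a lysosomal protein gene named after its values were seen because it gave most of the list's counts (683 ± 45.6 to 226 ± 22.7, log2 fold change -1.59). The 12 genes summed to 23.0 to 25.9 CPM in WT and 6.47 to 7.81 in NUAK2-CR. The 10 endothelial markers summed to 10.3 to 13.2 CPM in WT and 9.10 to 9.65 in NUAK2-CR. Of the 7 tested, 2 rose and 1 fell (42.9% called). PECAM1, the endothelial DEG, rose from 2, 0 and 0 counts in WT to 12, 14 and 14 in NUAK2-CR. The ratio per effective library size was 27.5, with an exact 95% interval of 7.13 to 235 for counting error. Like STMN2, PECAM1 met the filter through the NUAK2-CR libraries alone. The part of these cell type markers in the changes of the 10 markers was not tested.

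**Figure D4:**
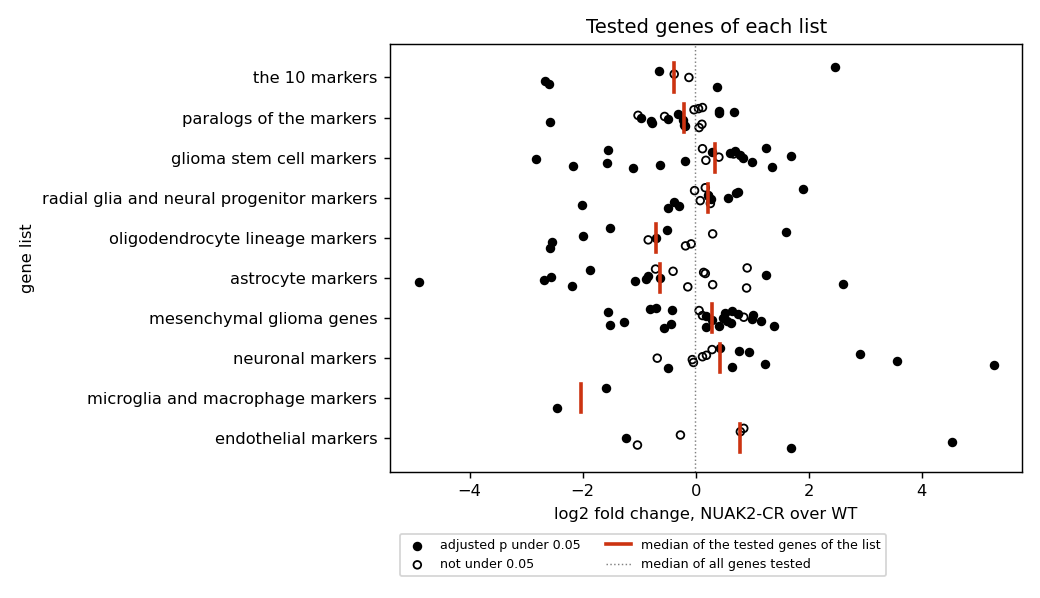
Log2 fold change of NUAK2-CR over WT for the tested genes of each list, filled where the adjusted p was under 0.05, with red bars at the list medians and a dotted line at the median of all tested genes. The 7 tested markers of the 10 have a median of -0.38, the oligodendrocyte and astrocyte lists medians of -0.70 and -0.64, and the glioma stem cell and neuronal lists medians of 0.35 and 0.43.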

How the data were processed

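Polyadenylated RNA of 3 WT and 3 NUAK2-CR libraries was sequenced with a stranded kit. The authors used Trimmomatic, then HISAT2 against hg38, and deposited the raw counts per gene that featureCounts gave with default parameters, which do not use strand; their versions and the annotation are not given in the sources used here. Of the identifiers, 27745 matched a RefSeq symbol. Counts were tested with edgeR 4.0.16 (R 4.3.3): filterByExpr, TMM, the quasi-likelihood F test, a prior count of 0.125 and Benjamini-Hochberg adjustment over all 14873 genes. DEGs followed the study's thresholds. Lengths came from GENCODE. The pipeline was tested on simulated data. Alternatives were DESeq2 1.42.0, other filters and scalings, each library left out, glmTreat, a prior count of 2, a replicate block and a lower fold threshold. The markers and lists were chosen with earlier results of these data known. Named genes were the markers, NUAK2, SOX2, family members, defining cell type markers and the DEGs of each list (of more than 4, the 4 largest changes among genes whose higher group averaged 100 normalized counts or more). Group differences with 3 libraries against 3 cannot go below p = 0.1 in an exact permutation test, so none was run.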

Additional observations from a re-analysis of the deposited data

How the results depend on the processing

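The marker counts did not move by more than 1.5 times under the alternatives run. Under every refit, the 7 tested markers kept their direction and their calls, except that NFIA passed without NUAK2-CR replicate 3. S100B was lower than POU3F2 with the replicate block (-2.70 against -2.68), without WT replicate 1 or NUAK2-CR replicate 3, and less the regional median. The number of DEGs over all genes, 702, was 339 with at least 10 counts in every library, 1095 with glmTreat against a log2 fold change of 1, and 2062 with an absolute log2 fold change over 1. Less the median of the 100 nearest tested genes, the log2 fold change was 0.28 for SALL2, 2.87 for CHI3L1, 0.04 for NFIA, whose sign turned, and -0.23 for NFIB.

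The replicate numbers are shared by the groups, but same-numbered libraries had correlations of their deviations of 0.04, -0.03 and 0.04, and WT replicate 2 did not correlate best with its own number. With the replicate number as a block, 8167 genes passed in place of 8107, and the same number of markers, 5. PROM1, OLIG1 and OLIG2 are limited by depth.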
